A study of Mus musculus with 9 samples.

Results

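The loci of 10 integrin genes were followed in chromatin accessibility data from the mouse breast carcinoma line D2A1-d after knockdown of Med4. The genes were Itgb1, Itgb3, Itgb5 and Itgb7, which encode beta subunits, and Itga5, Itga6, Itga8, Itga9, Itga11 and Itgav, which encode alpha subunits. A peak belonged to a gene when its centre lay in the gene body or within 50 kb of either end, on the mouse build mm10. Of the 146734 peaks in the deposited table, 229 met this rule, and none fell in the windows of more than 1 gene. The windows held 21 peaks for Itgb1, 26 for Itgb3, 36 for Itgb5, 22 for Itgb7, 27 for Itga5, 17 for Itga6, 15 for Itga8, 24 for Itga9, 18 for Itga11 and 23 for Itgav. Of the 229, 112 lay inside their integrin gene, 34 outside it but inside another protein-coding gene, and 83 in neither. Nearness does not assign a peak to a target gene.

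In ATAC-seq the Tn5 transposase cuts and tags DNA that is free of tightly packed nucleosomes, so reads pile up where chromatin is accessible. The cells had been transduced with a non-targeting control (NTC, labelled wild type) or with 1 of 2 hairpins against Med4, called shMed4 #1 and shMed4 #4 (labelled as a Med4 knockdown). Each of the 3 groups had 3 libraries, numbered as biological replicates and otherwise untreated. The labels do not tie the libraries to separate transductions, so p-values measure only the spread between these libraries. Values are normalised reads per peak: reads in a peak of fixed width divided by a size factor of the library. Libraries held 44753019 to 98898174 reads in peaks, and the shallowest were 2 of shMed4 #4. The peak at the end of Med4 itself had 544 normalised reads in NTC, 451 with shMed4 #1 and 469 with shMed4 #4 (log2 fold -0.24, limma adjusted p = 0.00174). A hairpin acts on RNA, so this peak does not check the knockdown. Med4 encodes a subunit of Mediator, the complex that connects transcription factors at enhancers with RNA polymerase II.

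Integrins are heterodimers of an alpha and a beta subunit that span the plasma membrane, bind matrix proteins or receptors on other cells outside, and connect through talin and kindlin adaptors to the actin cytoskeleton inside. In breast carcinoma cells they are known for their part in adhesion, migration and growth signals at sites of matrix contact. The product of Itgb1 pairs with those of Itga5, Itga6, Itga8, Itga9, Itga11 and Itgav. The products of Itgb3 and Itgb5 pair with that of Itgav as vitronectin receptors, and that of Itgb7 serves lymphocyte homing with alpha subunits that are not among the 10 genes.

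Promoter sequences were at hand for 8 of the 10 genes (RefSeq, GRCm38.p6). The entries for Itgb3 and Itga6 are not used here. The 250 bases before the start site are shown, 5' to 3' on the gene's strand, for the 5 genes where a peak overlapped them, because the accessibility of these start sites is compared between the groups further on. They lie at chr8:128685404-128685653 (+) for Itgb1, chr16:33829415-33829664 (+) for Itgb5, chr2:83724147-83724396 (+) for Itgav, chr15:103366792-103367041 (-) for Itga5 and chr2:12301945-12302194 (-) for Itga8. Capitals mark matches to the GC box GGGCGG on either strand and, next to the start of Itgb1, to the TEAD motif GGAATG.
Itgb1 promoter: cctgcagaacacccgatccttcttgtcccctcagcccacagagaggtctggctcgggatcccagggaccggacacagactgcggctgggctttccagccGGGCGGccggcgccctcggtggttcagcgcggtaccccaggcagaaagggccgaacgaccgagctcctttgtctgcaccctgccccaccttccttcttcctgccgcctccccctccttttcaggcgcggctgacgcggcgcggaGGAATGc
Itgb5 promoter: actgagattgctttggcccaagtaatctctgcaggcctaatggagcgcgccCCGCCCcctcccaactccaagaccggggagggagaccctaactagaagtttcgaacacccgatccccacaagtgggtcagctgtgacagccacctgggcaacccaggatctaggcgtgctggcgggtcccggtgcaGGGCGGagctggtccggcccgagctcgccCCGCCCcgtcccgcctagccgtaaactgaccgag
Itgav promoter: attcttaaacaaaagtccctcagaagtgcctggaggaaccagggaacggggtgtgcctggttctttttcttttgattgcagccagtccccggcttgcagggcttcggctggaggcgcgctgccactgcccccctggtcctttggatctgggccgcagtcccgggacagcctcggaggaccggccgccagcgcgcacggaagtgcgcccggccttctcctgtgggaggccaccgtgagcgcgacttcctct
Itga5 promoter: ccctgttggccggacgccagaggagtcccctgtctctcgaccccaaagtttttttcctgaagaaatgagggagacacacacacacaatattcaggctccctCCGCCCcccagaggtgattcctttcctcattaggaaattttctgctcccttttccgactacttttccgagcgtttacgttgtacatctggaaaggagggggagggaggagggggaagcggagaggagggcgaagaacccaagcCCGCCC
Itga8 promoter: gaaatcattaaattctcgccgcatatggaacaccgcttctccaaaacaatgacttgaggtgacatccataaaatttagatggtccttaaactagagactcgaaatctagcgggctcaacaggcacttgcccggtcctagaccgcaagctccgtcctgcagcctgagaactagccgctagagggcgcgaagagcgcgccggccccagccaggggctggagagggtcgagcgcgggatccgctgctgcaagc

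Itgb1 had 1 GC box, beginning 151 bases before the start, and a GGAATG beginning 7 bases before it. Itga5 had 2 GC boxes, at 149 and 6 bases before the start, and Itgb5 had 3, at 199, 63 and 34 bases before it. Both strands were searched. Of the 8 integrin promoters 3 held a GC box, against 32.7% of all 32851 promoters of the same length, and 1 held GGAATG, against 12.6%. The AP-1 motif TGANTCA (6.75% of all promoters), the ETS motif CCGGAAG (6.91%), the TATA box TATAAA (12.4%) and CCAAT (33.8%) had no match in these 8 windows. GC content was between 55.6% (Itga5) and 68.4% (Itga11). A match is a run of letters and not a bound site.

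Over the 10 genes together, peaks moved in both directions after Med4 knockdown, and about as often as peaks elsewhere in the genome. For the mean of both hairpins against NTC, 57 of the 229 peaks rose (24.9%), beside 27.9% of the 146729 peaks tested, and 62 fell (27.1%), beside 26.2%. A peak is said to rise or fall when the limma p-value, adjusted over all peaks tested, was under 0.05. With shMed4 #1 alone 52 rose and 69 fell (22.7% and 30.1%, against 27.9% and 24.9% of all peaks). With shMed4 #4 alone 58 rose and 61 fell (25.3% and 26.6%, against 26.2% and 24.3%). These comparisons share the NTC libraries. The median log2 fold was -0.04 for both hairpins, against -0.02 over all peaks. All 6 hairpin libraries lay above all 3 NTC libraries at 39 of the 229 peaks (background 19%) and below them at 49 (16.5%). Changes of at least 2-fold were few: 9 of the 229 peaks were that much higher and 2 that much lower, counted by fold alone. Of all peaks tested, 5.97% and 0.96% were that much higher or lower and were also called.

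The balance of rises and falls depended on how the libraries were scaled. After centring each library on the median of its peaks at gene ends, 69 of the 229 rose and 41 fell, and the median over all peaks tested shifted from -0.02 to 0.09. Over all peaks the same scaling gave 35.8% higher and 15.4% lower. All 229 peaks passed the filter of a mean of at least 10 normalised reads, and their median in NTC was 294.3, against 183.7 for all peaks tested. The rule's distance limit left a peak beside Itgb7 just inside, 48159 bp from the gene, with a log2 fold of -0.09. The nearest one outside, 50028 bp from Itga8, had 1.15.

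**Figure D1:**
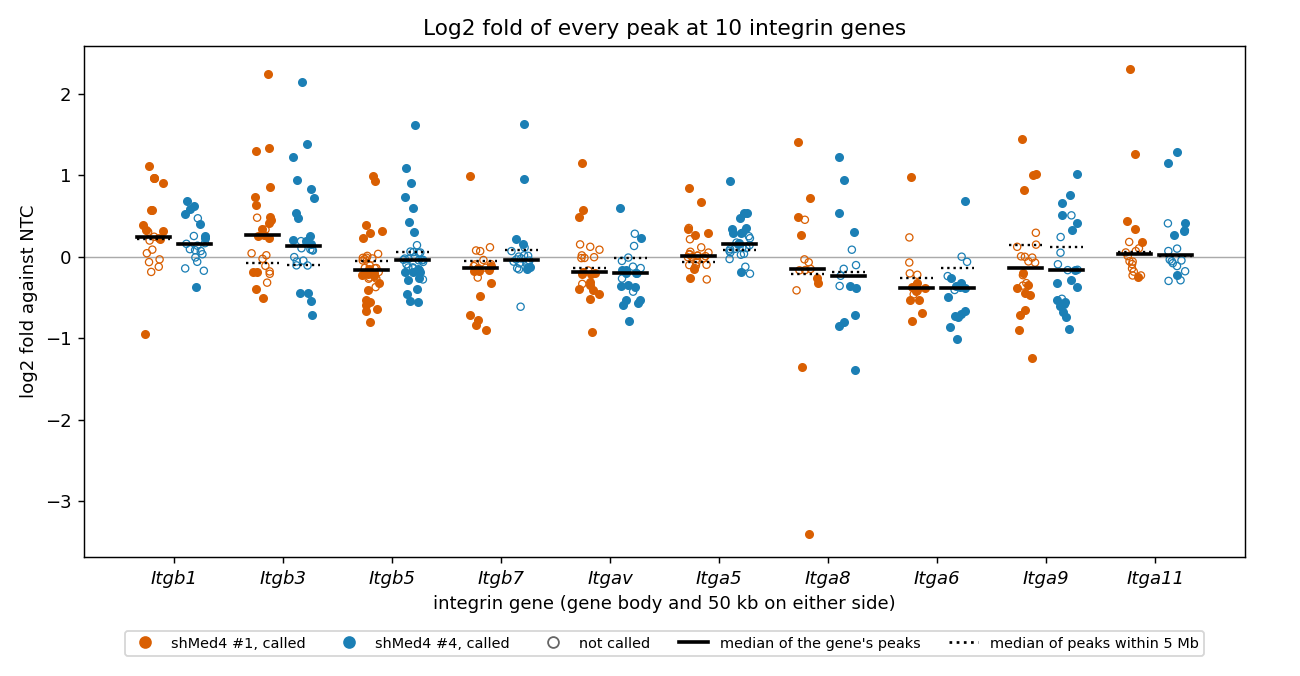
Each point is a peak, by integrin gene (horizontal) and log2 fold against NTC (vertical), for shMed4 #1 (orange) and shMed4 #4 (blue); filled points passed the limma test, bars are the median of the gene's peaks and dotted lines the median of the peaks within 5 Mb around. The Itga6 medians are -0.38 with either hairpin, whereas Itgb3 medians are 0.26 and 0.13, and 1 Itga8 peak stands at -3.40.

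The genes did not share 1 direction. With both hairpins against NTC, rises outnumbered falls at Itgb1 (10 and 0), Itgb3 (13 and 3), Itga5 (6 and 0) and Itga11 (4 and 0). Falls outnumbered rises at Itga6 (12 and 1), Itgav (12 and 4), Itgb5 (14 and 7), Itga9 (9 and 5), Itgb7 (6 and 3) and Itga8 (6 and 4). Of the peaks within 5 Mb, 48.3% rose and 8.15% fell around Itgb1, 22.4% and 33.4% around Itgb3, and 25.6% and 16.6% around Itga5. Around Itga11 the shares were 30.6% and 19.2%, around Itga6 22.7% and 45.4%, around Itgav 26.4% and 28.5%. Around Itgb5 they were 31.7% and 23.6%, around Itga9 41.1% and 15.6%, around Itgb7 26.8% and 16.8%, around Itga8 18.1% and 46.5%. The 0 counts of falls at Itgb1, Itga5 and Itga11 were also 0 at an unadjusted limma p under 0.05, with edgeR and with DESeq2, but 1 fall appeared at Itgb1 without shMed4 #1 replicate 2 and at Itga11 without shMed4 #1 replicate 2 or shMed4 #4 replicate 3. Without NTC replicate 3, Itgb7 had 2 rises and 3 falls, and without NTC replicate 2, Itga8 had 2 rises and 5 falls. Centred on gene-end peaks, the counts for Itgb7 turned to 4 rises and 2 falls and those for Itga8 to 4 and 3, while the order held at the other 8 genes, narrowly at Itgb5 (7 rises and 8 falls) and Itga9 (6 and 7). Grouped by subunit, a grouping made after the values were seen, beta windows had 33 rises and 23 falls of 105 peaks and alpha windows 24 and 39 of 124, with medians of -0.03 and -0.05. Over all peaks tested, 27.9% rose and 26.2% fell. No difference between genes was tested.

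**Figure D2:**
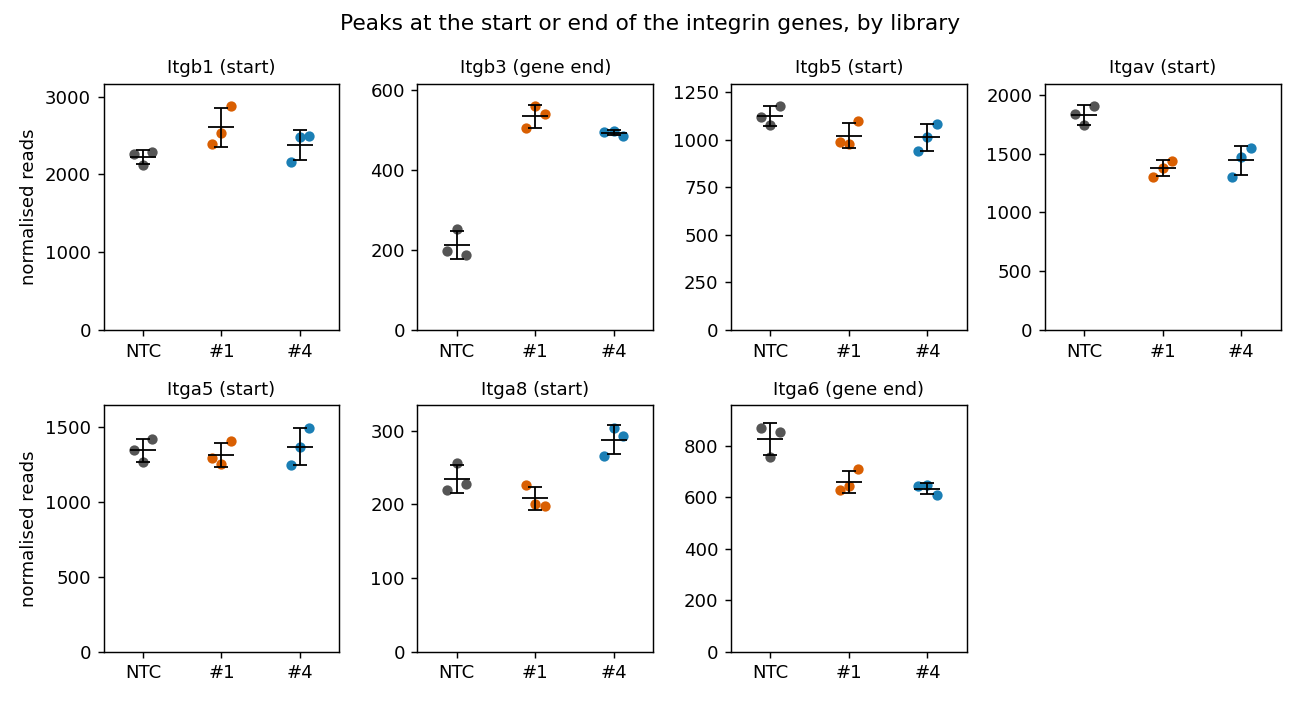
Normalised reads in each of the 9 libraries (points), with mean and SD (bars), for the peak of highest mean within 1 kb of the start site, or of either gene end for Itgb3 and Itga6, where no strand is given. The Itgb3 peak is above all NTC libraries with both hairpins, and those of Itgav and Itga6 are below all of them.

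Itgb1 (chr8:128685654-128733579) encodes the beta subunit with the most partners, and its locus gained reads. Summed over its 21 peaks, NTC had 16709 ± 343 normalised reads (SD, n = 3), shMed4 #1 21632 ± 315 and shMed4 #4 19445 ± 625, with no overlap between groups. The surroundings moved as well: over the 540 peaks within 5 Mb the median log2 fold was 0.18, beside 0.19 at Itgb1. With each library centred on that region, 5 Itgb1 peaks rose and 2 fell. The region's part in the rise was otherwise not tested.

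The strongest Itgb1 peak, at chr8:128666654-128667155, 18.8 kb before the start, held 5912, 5899 and 5848 normalised reads in the NTC libraries. It held 7500, 7239 and 7269 with shMed4 #1 and 6662, 6734 and 7223 with shMed4 #4. All hairpin libraries were above NTC (log2 fold 0.27, SE 0.04, limma adjusted p = 1.04e-07), though with the region's median removed the fold was 0.07 and not called. Its NTC level was at the 99.8th percentile of all peaks. The start site peak, at chr8:128685322-128685823, had 2268, 2124 and 2295 reads in NTC, 2398, 2535 and 2881 with shMed4 #1, and 2158, 2484 and 2494 with shMed4 #4. In the mean of both hairpins the small rise was 0.16 (SE 0.05, limma adjusted p = 0.00956), though the groups overlapped. It was lost without NTC replicate 2 (0.12) and became -0.04 with the region's median removed. Alone, shMed4 #1 was called (0.22) and shMed4 #4 was not (0.09).

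Larger folds at Itgb1 were at weaker peaks. The largest was at a peak 38.8 kb before the start, with 74.5 reads in NTC, 144 with shMed4 #1 and 110 with shMed4 #4 (0.77, SE 0.15). Without NTC replicate 3 its fold with shMed4 #4 alone was 0.37 and no longer called. A peak 5.1 kb inside the gene (chr8:128690503-128691004), picked after its values were seen, had 1177, 1231 and 1209 reads in NTC, between 1755 and 1828 with shMed4 #1 and between 1880 and 2043 with shMed4 #4. It rose with both (0.62, SE 0.05, adjusted p = 1.61e-14). The other rises of the window lay 37.8 kb before the start to 43.1 kb after it.

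Itgb3 (chr11:104608000-104670476) encodes the beta subunit of the vitronectin receptor on osteoclasts, endothelium and many invasive tumour cells. Its locus showed the largest rises among the beta genes, on a region that leaned the other way (median -0.08 over 1141 peaks within 5 Mb, 0.17 at Itgb3). The peak that moved most lay 3.5 kb outside the lower-coordinate end of the gene, at chr11:104604284-104604785. It had 120, 107 and 132 normalised reads in NTC, 570, 574 and 560 with shMed4 #1, and 516, 544 and 529 with shMed4 #4. The hairpin libraries were far above NTC and close to each other (log2 fold 2.19, SE 0.08, limma adjusted p = 6.45e-24; shMed4 #4 against #1 -0.10, adjusted p = 0.377).

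The peak at the end itself, chr11:104607863-104608364, had 198, 254 and 188 reads in NTC, 505, 561 and 540 with shMed4 #1 and 495, 499 and 487 with shMed4 #4 (1.28, SE 0.08). A peak 11.7 kb inside, picked after its values were seen, went from 402, 396 and 407 to 1038, 993 and 944 and to 1062, 1065 and 1005 (1.34, SE 0.05). Between 10.0 and 19.9 kb inside the gene, a stretch picked out after its values were seen, 7 of 7 peaks rose in the mean of both hairpins, by 0.14 to 1.34. The lowest of these, 14.7 kb inside, fell with shMed4 #1 (-0.19) and rose with shMed4 #4 (0.47), and its mean rise lost its call in 6 of the 9 fits that leave out 1 library (NTC 1 or 2, shMed4 #1 1 or 2, shMed4 #4 1 or 3), with folds of 0.10 to 0.14.

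Not all of the locus rose. The strongest peak of Itgb3, 33.1 kb inside, held 2069 reads in NTC, 2127 with shMed4 #1 and 1923 with shMed4 #4 and was not called (-0.03). The peak 11.4 kb outside the gene, chr11:104596368-104596869, fell from 344, 358 and 336 reads to 250, 227 and 255 and to 238, 160 and 243 (-0.61, SE 0.10, limma adjusted p = 2.76e-06). The other falls, at peaks 31.1 and 40.8 kb inside and outside the naming rule, were -0.37 and -0.38. The summed peaks of the window were 16939 ± 134 in NTC, 20915 ± 82 with shMed4 #1 and 19113 ± 262 with shMed4 #4 (SD, n = 3). With the region's median removed 15 peaks rose and 2 fell.

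**Figure D3:**
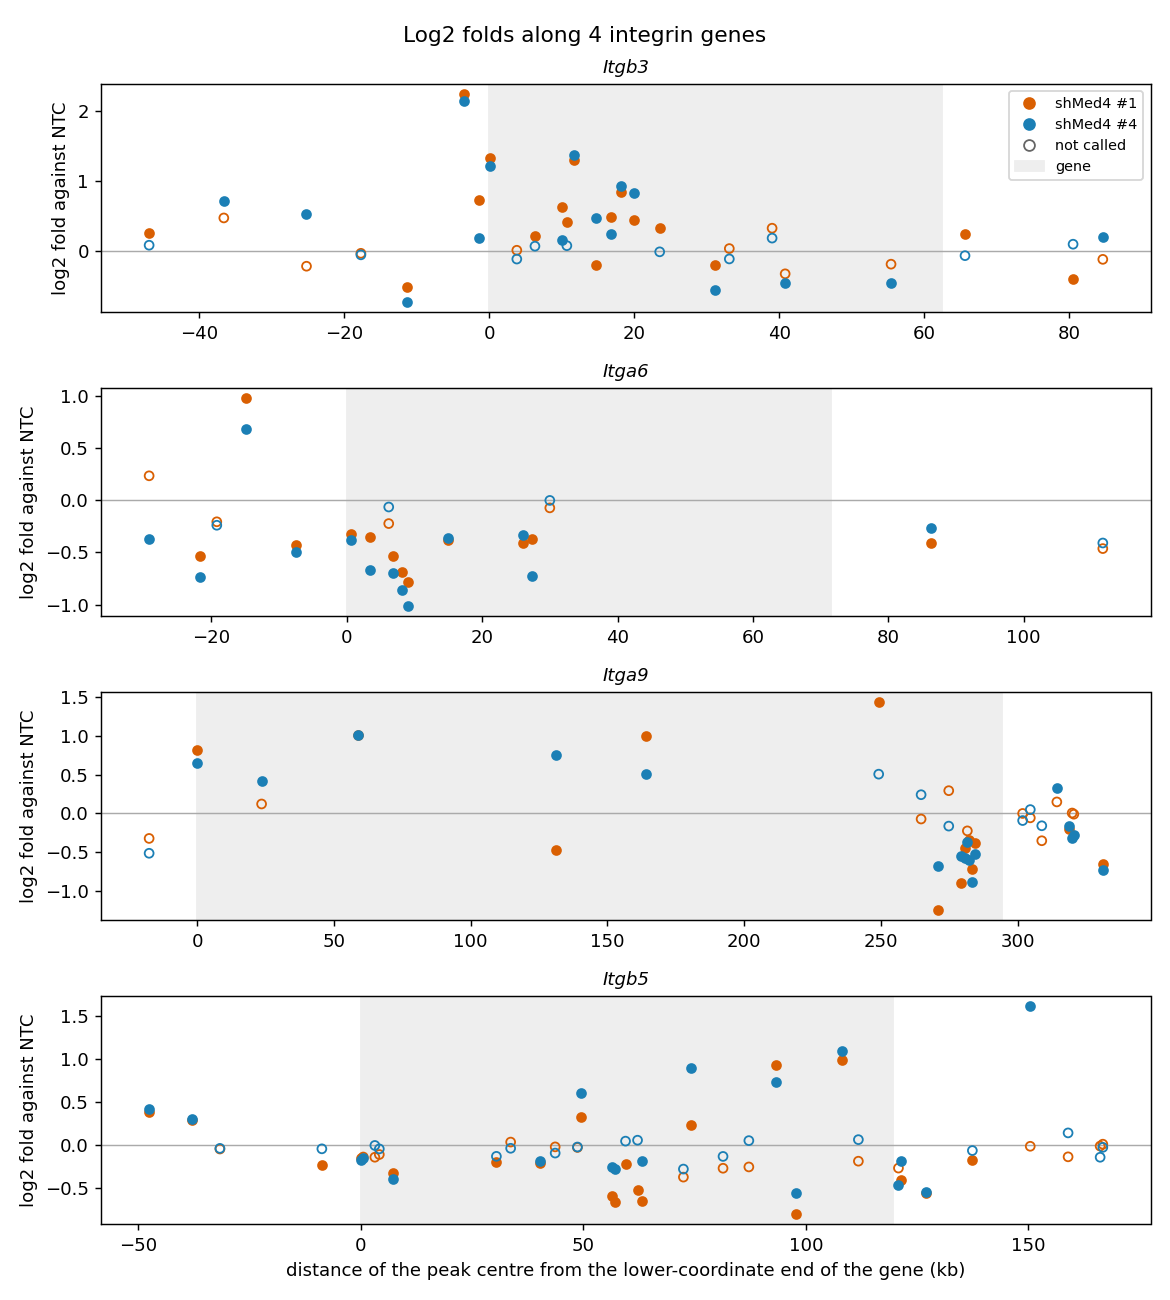
Log2 fold against NTC (vertical) of each peak by its distance from the lower-coordinate end of the gene in kb (horizontal), at Itgb3, Itga6, Itga9 and Itgb5; grey marks the gene and open points were not called. Of the 13 Itgb3 rises 10 lie between -3.5 and 19.9 kb, 8 Itga6 falls between 0.6 and 27.3 kb, and a run of Itga9 falls from 279.3 to 284.2 kb.

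Itgb5 (chr16:33829665-33949338), whose product joins that of Itgav in another vitronectin receptor, fell at its strongest peak and at its start, while its 7 rises were at peaks of 140 to 763 normalised reads in NTC. The strongest, 7.2 kb inside the gene at chr16:33836608-33837109, had 4121, 4078 and 4017 normalised reads in NTC. With shMed4 #1 it had 3356, 3182 and 3186, and with shMed4 #4 2921, 3128 and 3226 (log2 fold -0.36, SE 0.04, limma adjusted p = 1.19e-09). Every hairpin library was below every NTC library. The peak over the promoter printed above, chr16:33829398-33829899 and outside the naming rule, went from 1023 reads to 921 and 911 (-0.16, limma adjusted p = 0.0155). The strongest peak within 1 kb of the start, chr16:33829965-33830466, went from 1123 to 1020 and 1012 (-0.15, SE 0.05, adjusted p = 0.0217). Its groups overlapped, and with shMed4 #1 alone it was not called (-0.14). The call in the mean was lost without NTC replicate 1 (-0.15), NTC replicate 3 (-0.11) or shMed4 #1 replicate 2 (-0.13). Scaling to gene-end peaks also removed it (-0.04). Falls were common at such peaks: of 12121 genes read within 1 kb of their start or end, 45.7% fell (median -0.11).

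The largest Itgb5 rise, 108.1 kb inside the gene, took a peak from 173, 103 and 144 reads to between 260 and 283 with shMed4 #1 and between 281 and 305 with shMed4 #4 (1.04, SE 0.11). The largest fall, 97.7 kb inside, took one from 68.1 to 38.4 and 45.6 reads (-0.68, SE 0.20, limma adjusted p = 0.00454). Without NTC replicate 2 this fall was -0.56 and not called. From 56.5 to 63.2 kb inside lay 5 peaks that all fell with shMed4 #1, by 0.22 to 0.67 on the log2 scale. With shMed4 #4 the same peaks were between -0.28 and 0.06, and 3 of them fell. All 5 differed between the hairpins (0.27 to 0.58 for shMed4 #4 against #1). This run was picked out after its values were seen. At the brightest of them, 62.2 kb inside, NTC had 2768, 2921 and 2724 reads, shMed4 #1 2023, 1902 and 1906, and shMed4 #4 2803, 2942 and 2999.

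Itgb7 (chr15:102215994-102233405), the beta subunit of lymphocyte homing receptors, sits in a short gene among Csad, Zfp740 and Rarg, and 10 of its 22 peaks lay inside another gene. With shMed4 #1 1 peak rose and 12 fell, whereas with shMed4 #4 4 rose and 2 fell, and in the direct comparison 9 were higher and 0 lower with shMed4 #4, beside 20.4% and 21.2% of all peaks tested. This 0 was also 0 at an unadjusted limma p under 0.05, with edgeR and with DESeq2, and was 1 without shMed4 #4 replicate 1. The 12 falls with shMed4 #1 were 7 without NTC replicate 3 or shMed4 #1 replicate 2, and the 2 falls with shMed4 #4 were 1 or 0 without any of NTC replicates 2 and 3 and shMed4 #4 replicates 1 and 2. The region leaned the same way (median 0.14 over 959 peaks). With its median removed 1 peak rose and 7 fell with shMed4 #1 and 2 rose and 7 fell with shMed4 #4, and in the direct comparison 5 were higher and 1 lower.

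The reference start of Itgb7 lies 1470 bp inside the upstream end of the gene. No peak lay within 1 kb of this start, and the closest were just beyond. One, chr15:102232742-102233243, lay 1.1 kb upstream of the start but still inside the gene, and was picked after its values were seen. It had 1783, 1936 and 1802 normalised reads in NTC and 1768, 1693 and 1748 with shMed4 #4. With shMed4 #1 it fell to 1006, 1034 and 1036 (log2 fold -0.84, limma adjusted p = 2.94e-16; shMed4 #4 against #1 0.76, SE 0.05). The strongest peak, 1.2 kb inside from the start, held 3598 reads in NTC, 3322 with shMed4 #1 and 4009 with shMed4 #4. The largest rise, 27.2 kb upstream at chr15:102258885-102259386, went from 136, 141 and 131 reads to 254, 278 and 281 and to 447, 460 and 365 (1.31, SE 0.09), higher with shMed4 #4 than with #1 by 0.64. The lowest fold called in the mean, inside Zfp740, was -0.47 (SE 0.18), though the peak was not called with shMed4 #4 alone (-0.16). The call in the mean was lost without NTC replicate 2 (-0.42), NTC replicate 3 (-0.37) or shMed4 #1 replicate 2 (-0.42).

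Among the alpha genes, Itgav, Itga5 and Itga8 encode the subunits whose dimers read the RGD motif of fibronectin, vitronectin and nephronectin. Itgav (chr2:83722303-83806917) fell at its start, as did each of its 6 peaks with over 1000 normalised reads in NTC. The start site peak, chr2:83724112-83724613, which covers the promoter printed above, had 1839, 1741 and 1905 normalised reads in NTC. It had 1304, 1380 and 1440 with shMed4 #1 and 1305, 1473 and 1547 with shMed4 #4. All hairpin libraries were lower than NTC (log2 fold -0.38, SE 0.05, limma adjusted p = 7.32e-08), and the hairpins did not differ by the test (0.07, SE 0.06, adjusted p = 0.387). Among the 12121 genes read at such a peak 45.7% fell, with a median of -0.11.

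The strongest Itgav peak, 20.2 kb inside from the start, fell from 3639, 3726 and 3560 reads to 2911, 2860 and 3021 and to 3163, 3190 and 3383 (-0.24, SE 0.04, limma adjusted p = 4.07e-06). Its fall with shMed4 #4 alone (-0.17) was not called with scaling to gene-end peaks (-0.06). The lowest fold of the window, 14.2 kb upstream, went from 172 reads to 90.0 and 119 (-0.73, SE 0.13). The highest in the mean of both hairpins, 10.3 kb upstream, went from 294 to 411 and 444 (0.54, SE 0.07). The 23 peaks summed to 16978 ± 234 in NTC, 14647 ± 360 with shMed4 #1 and 14576 ± 311 with shMed4 #4 (SD, n = 3); NTC stood apart and the hairpin groups overlapped. The 235 peaks around had a median of -0.07, and with it removed 11 Itgav peaks fell and 4 rose.

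Itga5 (chr15:103344286-103366791), the alpha subunit of the main fibronectin receptor, had no call at its start site. The peak at chr15:103366328-103366829 had 1347, 1267 and 1420 normalised reads in NTC, 1291, 1253 and 1406 with shMed4 #1 and 1246, 1365 and 1496 with shMed4 #4 (log2 fold -0.00, SE 0.05, limma adjusted p = 0.958). No Itga5 peak fell in the mean of both hairpins, and 6 of 27 rose, beside 16.6% and 25.6% of the 812 peaks within 5 Mb. With shMed4 #1 alone 2 Itga5 peaks fell, and with shMed4 #4 alone 1. With the regional median removed 6 rose and 1 fell in the mean. The strongest peak, 8.0 kb inside from the start, went from 3274, 3222 and 3228 reads to 3955, 3710 and 4071 and to 3731, 3980 and 4221 (0.28, SE 0.04). The largest rise was 27.0 kb upstream at chr15:103393525-103394026. It took the peak from 1529, 1573 and 1530 reads to 2822, 2746 and 2717 with shMed4 #1 and 2266, 2264 and 2178 with shMed4 #4 (0.69, SE 0.04, adjusted p = 1.11e-16). That rise was larger with shMed4 #1 (shMed4 #4 against #1 -0.30, adjusted p = 2.7e-06).

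Itga8 (chr2:12106632-12301985), the nephronectin receptor subunit known from kidney and smooth muscle, held the deepest fall of the 229 peaks. At chr2:12174669-12175170, 127.0 kb inside from the start, NTC had 153, 175 and 155 normalised reads, shMed4 #1 13.6, 19.5 and 11, and shMed4 #4 53.6, 61.4 and 67.0. The groups were fully apart, with NTC highest and shMed4 #1 lowest. The log2 fold was -3.40 with shMed4 #1 and -1.40 with shMed4 #4, and the difference between them was 2.00 (SE 0.24, limma adjusted p = 8.39e-09). With a pseudocount of 5 in place of 1 the folds were -3.09 and -1.34.

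Other Itga8 peaks went different ways. A second fell, 163.0 kb inside from the start, from 166, 164 and 164 reads to 51.2, 75.4 and 68.2 and to 74.4, 87.0 and 116 (-1.10, SE 0.15), and was picked after its values were seen. Between them and the start, a peak at chr2:12213012-12213513 rose from 111, 124 and 119 to 303, 324 and 316 and to 236, 239 and 212 (1.17, SE 0.09). The start site peak was weak, with 220, 256 and 227 reads in NTC, 226, 200 and 198 with shMed4 #1 and 266, 304 and 293 with shMed4 #4. It was not called in the mean of both hairpins (0.06). It was higher with shMed4 #4 than with #1 by 0.47 (SE 0.10, limma adjusted p = 0.000357), while its rise with shMed4 #4 against NTC (0.30) was lost without NTC replicate 1 (0.25), NTC replicate 3 (0.28) or shMed4 #4 replicate 2 (0.26). The strongest peak of the window, 23.7 kb upstream with 2008 reads in NTC, was not called (-0.07). With the regional median of -0.21 removed its fold was 0.11 and called, that of the start site peak 0.24 and called, and the window had 7 rises and 3 falls in place of 4 and 6.

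The other alpha genes encode receptors for laminin (Itga6), for tenascin, osteopontin and VCAM-1 (Itga9) and for fibrillar collagen (Itga11). Itga6 (chr2:71786886-71858427), also known as a marker of basal and progenitor cells of the mammary gland, fell at most of its peaks. Of its 17 peaks 12 fell and 1 rose, and of the 10 inside the gene 8 fell and had every hairpin library below every NTC library. Summed over the window, NTC had 7018 ± 61 normalised reads, against 5558 ± 140 with shMed4 #1 and 5362 ± 125 with shMed4 #4 (SD, n = 3). The 555 peaks within 5 Mb also leaned down (median -0.20, against -0.37 at Itga6), and with that removed 10 Itga6 peaks fell and 1 rose.

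The peak 0.6 kb inside the lower-coordinate end of Itga6, chr2:71787233-71787734, fell from 870, 755 and 853 reads to 629, 644 and 709 and to 644, 647 and 609 (limma log2 fold -0.35, SE 0.06, adjusted p = 4.76e-06). With shMed4 #1 alone and the regional median removed it was -0.09 and not called. Among the 12121 genes read at a start or end peak 45.7% fell in the mean of both hairpins, with a median of -0.11. The lowest fold, 9.0 kb inside, took a weak peak from 99.3, 97.6 and 105 reads to 59.2, 59.2 and 55.0 and to 52.8, 53.7 and 42.3 (-0.90, SE 0.17). Its neighbour 8.1 kb inside, picked after its values were seen, went from 361, 337 and 347 to 219, 219 and 209 and to 223, 189 and 166 (-0.77, SE 0.09). The strongest peak of the window lies at an end of Pdk1, 86.3 kb from the lower end of Itga6, and fell by 0.34 on the log2 scale, from 1573 reads to 1186 and 1310. The single rise was 14.9 kb outside the gene, from 144, 118 and 153 reads to 286, 271 and 261 and to 240, 197 and 229 (0.83, SE 0.10).

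Itga9 (chr9:118606709-118901003) fell within a region that leaned up: the median was -0.15 at the gene and 0.13 over the 796 peaks around, and with the latter removed 11 peaks fell and 4 rose. The falls included a run of 6 peaks between 279.3 and 284.2 kb from the lower-coordinate end, all 6 of which fell, by 0.30 to 0.80 on the log2 scale. The run was picked out after its values were seen. At its strongest, chr9:118885716-118886217, NTC had 676, 658 and 655 normalised reads, shMed4 #1 343, 372 and 353, and shMed4 #4 511, 436 and 411 (-0.72, SE 0.07, limma adjusted p = 1.87e-11). At the peak with the lowest fold under the naming rule, chr9:118889560-118890061, the values were 287, 218 and 222, then 178, 131 and 133, then 129, 132 and 127 (-0.80, SE 0.12).

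The 5 rises at Itga9 were at weak peaks, with 20.5 to 335 normalised reads in NTC. The peak at the lower-coordinate end of the gene, which is its upstream end, 105.1 kb before the reference start and picked after its values were seen, went from 148, 127 and 146 reads to 258, 247 and 240 and to 237, 194 and 235 (0.74, SE 0.10). The highest fold, at chr9:118665377-118665878, took a peak from 50.8, 50.3 and 59.7 reads to 106, 116 and 106 and to 104, 105 and 118 (1.01, SE 0.15, limma adjusted p = 3.93e-07). No peak lay within 1 kb of the reference start. The strongest peak of the window, 982 reads in NTC, fell by 0.18 on the log2 scale, a call lost without NTC replicate 3 (-0.15) and when centred on gene-end peaks (-0.07).

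Itga11 (chr9:62677855-62783979), a collagen receptor of fibroblasts and of cancer cells with mesenchymal traits, gained reads upstream. At chr9:62644394-62644895, 33.2 kb before the start, NTC had 46.8, 33.9 and 44.2 normalised reads, shMed4 #1 199, 203 and 219, and shMed4 #4 113, 83.1 and 113 (log2 fold 1.79, SE 0.15, limma adjusted p = 8.53e-13). The rise was larger with shMed4 #1 (shMed4 #4 against #1 -1.01, SE 0.17). The next peak, 31.9 kb before the start and picked after its values were seen, rose with both hairpins (shMed4 #4 against #1 -0.10, adjusted p = 0.458), from 125, 127 and 119 reads to 315, 277 and 298 and to 261, 289 and 277 (1.20, SE 0.09). Inside the gene, 6.6 kb from the start, a stronger peak rose from 1258, 1246 and 1262 to 1600, 1607 and 1538 and to 1464, 1583 and 1499 (0.30, SE 0.05). The brightest peak of the window, 109.1 kb from the start with 2238 reads in NTC, was not called (0.06). No Itga11 peak fell in the mean of both hairpins, 4 rose and the other 14 were not called. Within 5 Mb 30.6% of 1021 peaks rose and 19.2% fell. With either hairpin alone 1 Itga11 peak fell, and with the regional median removed 1 fell in the mean. No peak lay within 1 kb of the start.

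The hairpins were then compared with each other, which involves no shared control. Of the 229 peaks 50 were higher with shMed4 #4 (21.8%, beside 20.4% of all peaks) and 42 lower (18.3%, beside 21.2%), shares close to those of other loci. The largest difference besides the Itga8 peak was inside Kalrn, in the Itgb5 window at chr16:33979829-33980330. There NTC had 627, 624 and 591 normalised reads and shMed4 #1 647, 595 and 582, while shMed4 #4 had 1965, 1814 and 1872 (log2 fold 1.63 for shMed4 #4 against #1, SE 0.06, limma adjusted p = 3.36e-21). The shMed4 #4 libraries were high and the other groups overlapped. A peak of Itgav 30.2 kb inside from the start was high with shMed4 #1 alone: 92.0, 92.4 and 89.2 reads in NTC, 226, 194 and 193 with shMed4 #1, and 75.3, 75.5 and 75.8 with shMed4 #4 (-1.42, SE 0.15).

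**Figure D4:**
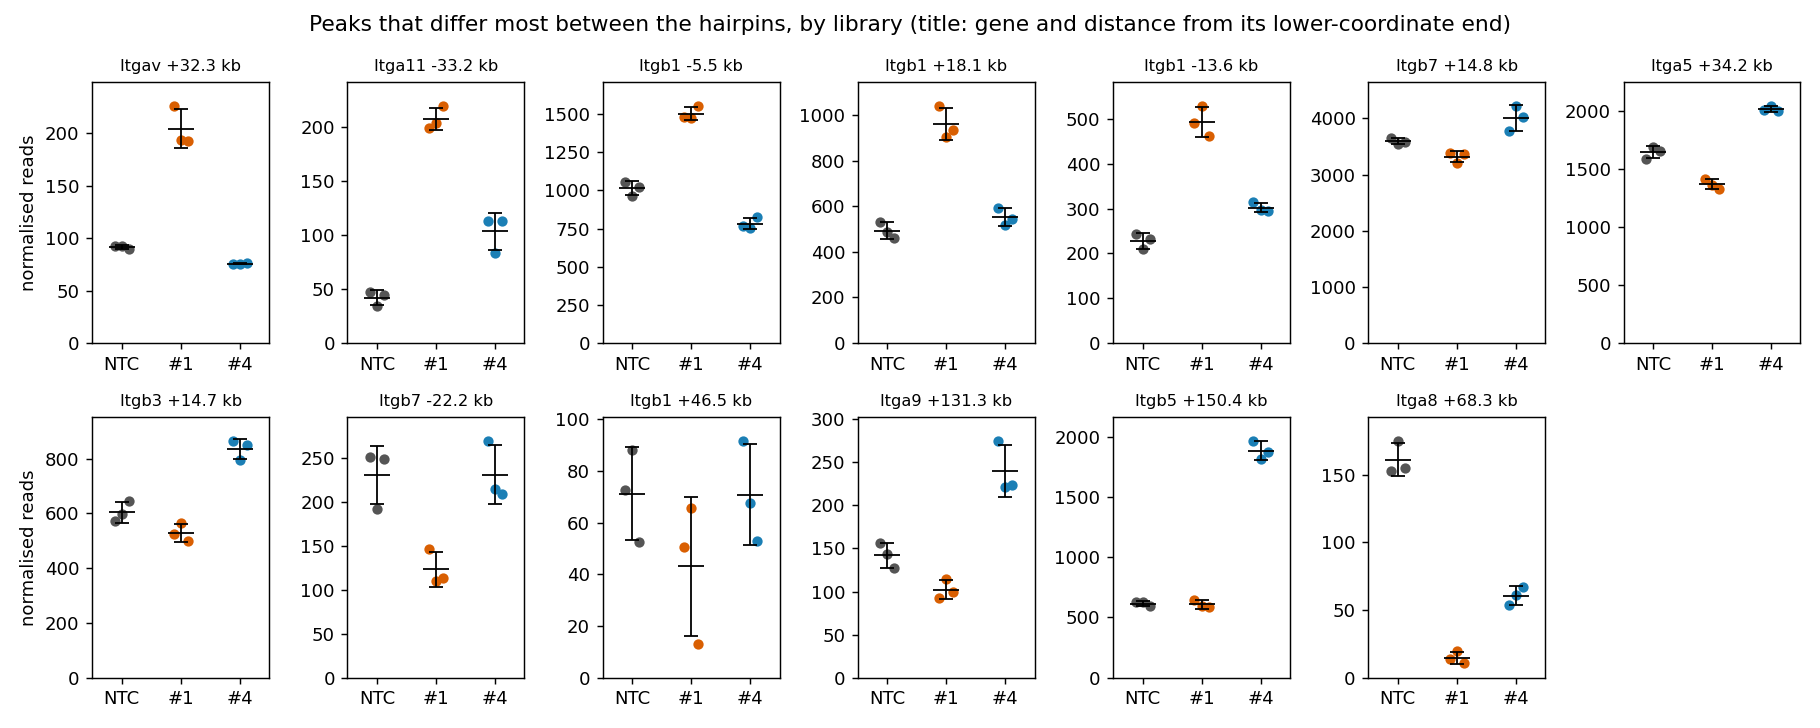
Normalised reads in each library (points), with mean and SD (bars), at the 13 peaks named for a difference between the hairpins; each panel title gives the gene and the distance of the peak from its lower-coordinate end. The Itgb5 panel at +150.4 kb has shMed4 #4 at 1883 and the other groups at 614 and 608, and at the Itgb1 panel at +46.5 kb the groups overlap.

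Among called peaks with a mean of at least 50 normalised reads, Itgb1 held 3 of the 5 that were lowest with shMed4 #4 relative to #1. At 18.1 kb inside the gene, NTC had 532, 487 and 458 reads, shMed4 #1 1039, 904 and 936, and shMed4 #4 593, 518 and 545 (log2 fold -0.80, SE 0.07). At 13.6 kb before the start, the peak rose with both hairpins, from 244, 209 and 232 reads to 491, 529 and 461 and to 315, 297 and 295, but less with shMed4 #4 (-0.70, SE 0.09, limma adjusted p = 4.06e-08). On the other side, a peak inside Csad, in the Itgb7 window, had 230 reads in NTC, 123 with shMed4 #1 and 230 with shMed4 #4 (0.90, SE 0.13). A weak Itgb1 peak 46.5 kb inside the gene was called higher with shMed4 #4 (0.94, SE 0.33) although its libraries overlapped, with 50.4, 65.7 and 13.2 reads for shMed4 #1. Without shMed4 #1 replicate 3 that difference was 0.26, and without shMed4 #4 replicate 1 it was 0.74, neither of them called.

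Of the 229 peaks, 6 were called in opposite directions with the hairpins, beside 3.17% of all peaks tested. The clearest by test was 5.5 kb before the start of Itgb1, at chr8:128679935-128680436, with 1058, 967 and 1020 normalised reads in NTC, 1481, 1478 and 1554 with shMed4 #1, and 767, 756 and 827 with shMed4 #4 (log2 fold 0.57 and -0.37). At Itga5, 11.7 kb upstream, the values were 1641 in NTC, 1366 with shMed4 #1 and 2013 with shMed4 #4, at Itgb3, 14.7 kb inside, 604, 529 and 836, and at Itga9, 26.3 kb inside from the start, 142, 102 and 240. The strongest Itgb7 peak and a peak of Itga8 23.0 kb inside from the start (220, 263 and 168 reads, the rise with shMed4 #1 at an adjusted p of 0.0498) made up the rest. Some of these calls are narrow: with shMed4 #1 the Itgb7 fall (-0.12, limma adjusted p = 0.0375) was lost without any 1 of NTC replicates 1, 2 or 3 or shMed4 #1 replicates 1, 2 or 3, and the Itgb7 rise with shMed4 #4 (0.15) without shMed4 #4 replicate 2 (0.12). The Itgb3 fall with shMed4 #1 was lost without NTC replicate 3 (-0.14), shMed4 #1 replicate 1 (-0.18) or shMed4 #1 replicate 3 (-0.15).

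Genes around the 10 integrins were read at 1 peak each, the strongest within 1 kb of the start, or of a gene end where no strand was given. The lists were planned as counts and medians only, so the single genes named below were chosen with their values seen. Of 12121 genes read in this way, 9.98% rose and 45.7% fell in the mean of both hairpins, with a median of -0.11. Of 17 other integrin subunits only 6 had a peak there. Itga2, a collagen receptor subunit, rose (log2 fold 0.52, from 200 normalised reads to 300 and 276). Itga3 (-0.21), which binds laminin, and Itgb8 (-0.27), a partner of Itgav that activates TGF-beta, fell with both hairpins. Itga1 fell in the mean (-0.23), but was called with shMed4 #4 (-0.48) and not with shMed4 #1 (0.02). The peaks of Itga10 (0.09) and Itgax (-0.15) did not pass the test. Among the leukocyte integrins, Itgal, Itgam and Itgb2 had no peak within 1 kb.

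Among 29 genes for integrin ligands 20 had a peak, of which 4 rose and 8 fell (median log2 fold -0.12), beside 9.98% and 45.7% of all 12121 genes. Of the 20, 11 were read at the start site. The rest, with Vcam1, Lama3, Tgfb3, Thbs1 and Fn1 among them, were read at a gene end that may not be the start. Vcam1, a ligand of the Itga9 product, rose from 119 reads to 219 and 287 (1.06), and Tnc, encoding tenascin-C, rose from 670 to 912 and 948 (0.47). Lama3, a laminin chain (0.89), and Postn, encoding periostin (0.86), rose too. Thbs1, encoding thrombospondin, fell with shMed4 #1 (331 to 128 reads) but was not called with shMed4 #4 (301 reads). The laminin chain genes Lama5 (-0.38) and Lamb1 (-0.38) fell, as did Tgfb3 (-0.27), Emilin1 (-0.26) and Ccn1 (-0.26), a matricellular ligand. In the mean, Lamb3, a further laminin chain (-0.24), and Tgfb1 (-0.16) fell, though neither was called with shMed4 #1 (-0.18 and -0.10). Fn1, encoding fibronectin, did not pass the test (-0.03, with 2460 reads in NTC against 2340 and 2477).

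Of 36 genes for activators, inhibitors and focal adhesion proteins 35 had a peak, of which 4 rose and 14 fell (median log2 fold -0.09). Over all 12121 genes read in this way, 9.98% rose and 45.7% fell (median -0.11). Of the 35, 27 were read at the start site. The rest, with Pxn, Tln2, Parva and Ptk2 among them, were read at a gene end. Bcar1 (0.24) and Tns1 (0.20) rose with both hairpins. Pxn, which encodes paxillin (0.13), and Cav1 (0.11) rose in the mean, but were called with shMed4 #4 (0.20 and 0.20) and not with shMed4 #1 (0.06 and 0.02), and both differed between the hairpins (0.14 and 0.18). Fermt1, encoding a kindlin, fell in the mean (-0.49), though with shMed4 #4 alone it was not called (-0.36). Tns3, a tensin (-0.39), Apbb1ip, the RIAM adaptor that brings talin to the membrane (-0.39), and Rsu1, a partner of the ILK complex (-0.32), fell. Neither talin gene passed the test in the mean of both hairpins (Tln1 -0.06, Tln2 -0.08), nor did Ilk (-0.02), Parva (0.01) or Ptk2, encoding focal adhesion kinase (-0.10).

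The tissue label was read against marker genes at the same kind of peak. Of 8 epithelial markers 1 had a peak, Krt18, which rose by a log2 fold of 1.33 (NTC 164 normalised reads, shMed4 #1 368, shMed4 #4 465). Of 5 mesenchymal markers 4 had one, and Vim (4155 reads in NTC, -0.43) and Twist1 (1883, -0.36) fell. Among immune markers Cd14 had a peak at a gene end (1514 reads in NTC, -0.14) and Ptprc and Cd3e had none. Of 3 endothelial markers Cdh5 had a peak, at a gene end that may not be its start, which rose (239 to 433 and 282 reads, 0.55). Their part in the integrin results was not tested.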

How the data were processed

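The data are 9 ATAC-seq libraries of D2A1-d cells in 3 groups of 3. The deposited signal values are reads per peak normalised by the authors with DESeq2 size factors, as far as the file's name tells. Per the submitters' processing notes the tools included Trim Galore, BWA, MACS2 and featureCounts, on mm10. Versions, whether peaks were called on pooled libraries, and the base from which coordinates count are not given in the sources used here. The 10 genes, the gene lists and the tests were chosen with earlier results of these data known.

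Gene positions came from RefSeq (GRCm38.p6), and start sites from its promoter table. Exons, introns and peak sequences are not analysed here. Not every marker gene is reported here. Peaks whose mean over libraries reached 10 entered the test, on log2(value + 1) with limma 3.58.1 (trend, R 4.3.3) in 1 fit over the 9 libraries, and p-values were adjusted by Benjamini and Hochberg over 146729 peaks. Fold changes are on this scale. In all 9 columns 100.0% of values were whole multiples of 1 read, within 0.0001 read, so the reads recovered in this way were also tested with edgeR 4.0.16 and, separately, with DESeq2 1.42.0 as alternatives. Depth was 44753019 to 98898174 reads in peaks. The method was tested on simulated data, in which a small set of peaks was raised and none lowered. That setting differs from these data, so it does not bear on how the calls depend on scaling.

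Peaks were named by rule. For each gene these were the strongest within 1 kb of the start (or of either end), the highest in NTC, and the highest and lowest fold among called peaks with a mean of at least 50. Over all genes they were the 5 highest and 5 lowest differences between hairpins under the same limits, and up to 5 peaks called in opposite directions. Peaks outside the rule are said to be picked after their values were seen. For the regional alternative each library was centred on its median over peaks within 5 Mb of the gene, leaving out the gene and 50 kb on either side.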

Additional observations from a re-analysis of the deposited data

Results flagged for a closer look

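At 5 of the named peaks the hairpins were called in opposite directions against NTC, and the difference between them was itself called by limma (log2 fold of shMed4 #4 against shMed4 #1). It was 0.27 at the strongest Itgb7 peak, 1.22 at the Itga9 peak 26.3 kb inside from the start, -0.94 at the Itgb1 peak 5.5 kb before the start, 0.56 at the Itga5 peak 11.7 kb upstream and 0.66 at the Itgb3 peak 14.7 kb inside the gene. The peaks were selected for this pattern.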

How the results depend on the processing

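For both hairpins, shMed4 #1 and shMed4 #4 against NTC, and shMed4 #4 against #1, in that order, a further requirement of at least 1.5-fold left 11.4%, 10.9%, 10.9% and 6.99% of the integrin peaks higher and 5.68%, 7.86%, 7.42% and 3.93% lower. At an adjusted p under 0.01, 17.5% were lower with shMed4 #4, and 13.5% higher and 11.8% lower with shMed4 #4 against #1. Centred on gene-end peaks, 17.9%, 18.3% and 14.4% were lower against NTC, beside 15.4%, 16.4% and 13.7% of all peaks. The median log2 folds were then 0.06, 0.03 and 0.08, beside 0.09 in each case over all peaks. For the other shares in this section the share over all peaks is not given, so they only compare settings. Against NTC the medians were -0.07, -0.09 and -0.06 with scaling to peaks elsewhere, -0.10, -0.12 and -0.06 with quantile normalisation, -0.06, -0.06 and -0.09 with the regional median removed, and -0.07, -0.11 and -0.06 for peaks in the gene body. They were -0.06 and -0.10 with equal totals for both hairpins and shMed4 #1, -0.03 with edgeR for both, and -0.11 within 10 kb for shMed4 #1. For shMed4 #4 against #1 the median was 0.05 with equal totals, -0.06 with the regional median removed and -0.01 in the gene body. The cause was not tested.

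Leaving out 1 library gave medians of -0.05 to -0.03, -0.1 to -0.05, -0.05 to -0.01 and 0.0 to 0.03. The share higher was then 21.8% to 25.8%, 21.0% to 23.6%, 22.3% to 25.8% and 16.6% to 21.4%, and the share lower 21.4% to 28.8%, 24.9% to 31.9%, 21.0% to 26.6% and 13.5% to 19.2%. Among the named peaks, removal of the regional median changed the sign of some folds. The strongest Itga8 peak, not called in the main fit, became 0.11 for both hairpins and 0.16 for shMed4 #1, and called. The Itgb1 start peak became -0.04 and -0.00 in these comparisons, and was no longer called. For shMed4 #4 against #1, the strongest Itga5 peak, not called in the main fit, became -0.12 and called. That of Itgav became -0.02 and was no longer called. Same-numbered libraries correlated between -0.011 and 0.073 in their deviations, and differently numbered ones between -0.103 and 0.041. These values do not settle whether the numbers mark pairs. With the replicate block, 25.3% were higher and 27.1% lower for both hairpins, 23.1% and 31% for shMed4 #1, 26.6% and 28.8% for shMed4 #4, and 22.3% and 19.7% for shMed4 #4 against #1. The shallowest library held 44753019 reads in peaks and the deepest 98898174.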
